A study of Mus musculus with 22 samples.

Results

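The genes described here are the 38 members of a set that covers the integrated stress response and the supply of amino acids to the cell. They were chosen by name: transcription factors of the response, its effector genes, enzymes of serine, one-carbon, asparagine, proline and cysteine metabolism, amino acid transporters and cytosolic tRNA synthetases. All 38 symbols were found among the 16235 genes listed over the deposited comparisons, under 39 gene identifiers, and every one was counted in all 22 libraries. Ddit3 is listed under 2 identifiers and its longer entry was used. The libraries are poly(A) RNA of whole mouse pancreas, with 1 animal per library.

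Every animal carried a Cre driver on a C57Bl/6 background, and animals with intact Ehmt2 (Ehmt2+/+) were set against animals with floxed Ehmt2 (Ehmt2fl/fl). Ehmt2 encodes the histone H3 lysine methyltransferase G9a. With the Pdx1-Cre transgene, untreated animals comprised 3 Ehmt2+/+ and 3 Ehmt2fl/fl at postnatal (PN) day 10, and 2 Ehmt2+/+ and 3 Ehmt2fl/fl young adults (YA). Other animals received caerulein, which acts on acinar cells like an excess of cholecystokinin, as 8 hourly injections of 50 µg/kg after a 12 h fast, and were taken 18 h after the first dose. Of these, 4 Ehmt2+/+ and 2 Ehmt2fl/fl carried Pdx1-Cre, while 2 Ehmt2+/+ and 3 Ehmt2fl/fl carried P48-Cre, a Cre knocked into the Ptf1a locus. No untreated animal carried P48-Cre, so the effect of caerulein cannot be read for that driver. Both drivers act in the pancreatic epithelium, and RNA of stromal and immune cells is part of each library. No fast or injection is recorded for the untreated YA animals, so these and caerulein cannot be told apart. In bulk tissue, fewer cells of a type and less RNA per cell cannot be told apart either.

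In the integrated stress response, kinases that sense unfolded protein, amino acid shortage, heme shortage or viral RNA phosphorylate the translation factor eIF2 on its alpha subunit. General translation then slows while the messenger RNA of Atf4 is translated better, and ATF4 protein, paired with C/EBP family partners, switches on genes for amino acid synthesis, amino acid import and tRNA charging. When stress lasts, the same pathway raises Ddit3 (CHOP), Trib3 and Chac1, and Ppp1r15a (GADD34) closes the loop by bringing a phosphatase to eIF2. Acinar cells make more protein than almost any other cell, and the pathway is known there for its link to secretory load and pancreatitis. Because ATF4 is controlled mainly at translation, its messenger RNA is a poor gauge of its activity, and the RNA of its target genes is commonly read in its place.

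ATF4 binds a C/EBP-ATF response element whose core was searched here as TGATGNAA on both strands. The windows were the 300 bases from 250 before to 50 after each gene's start in RefSeq (GRCm38.p6). The core was present in 3.97% of all 32851 promoters, and in 2.81% of the 9246 genes with a promoter that were counted in all libraries. Of the members, 31 had a promoter in this table and 11 of these (35.5%) held the core. They were Nupr1 among 6 regulators, Trib3 and Chac1 among 5 effectors, Asns and Pycr1 among 4 asparagine, proline and cysteine enzymes, Slc7a11 and Slc1a4 among 5 transporters, and Aars, Gars, Iars and Yars among 6 synthetases. None of 5 serine and one-carbon enzymes held it in this window. The promoters of 5 of these 11 members are written below, 5′ to 3′ on the gene's strand with the core in capitals. Those of the other core holders are not shown, among them Pycr1, Slc1a4 and Gars, whose values are also given later. Slc7a11 holds 2 cores.
Asns, chr6:7693160-7693459, minus strand: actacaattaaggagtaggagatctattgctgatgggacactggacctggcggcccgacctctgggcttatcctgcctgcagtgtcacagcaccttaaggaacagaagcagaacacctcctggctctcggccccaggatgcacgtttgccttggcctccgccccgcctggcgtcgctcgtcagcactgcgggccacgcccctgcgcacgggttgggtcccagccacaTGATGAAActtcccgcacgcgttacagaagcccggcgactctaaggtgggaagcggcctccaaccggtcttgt
Trib3, chr2:152344011-152344310, minus strand: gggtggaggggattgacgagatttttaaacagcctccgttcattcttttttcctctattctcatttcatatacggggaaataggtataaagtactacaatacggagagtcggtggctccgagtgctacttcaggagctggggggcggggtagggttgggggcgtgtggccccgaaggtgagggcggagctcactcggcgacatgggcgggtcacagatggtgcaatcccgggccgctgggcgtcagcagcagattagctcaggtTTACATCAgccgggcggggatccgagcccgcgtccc
Chac1, chr2:119350992-119351291, plus strand: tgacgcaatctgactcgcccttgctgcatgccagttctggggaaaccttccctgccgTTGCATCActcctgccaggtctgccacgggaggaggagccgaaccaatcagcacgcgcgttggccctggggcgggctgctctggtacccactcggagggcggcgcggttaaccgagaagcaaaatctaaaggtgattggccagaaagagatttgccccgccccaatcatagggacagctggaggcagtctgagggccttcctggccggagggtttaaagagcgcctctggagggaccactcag
Slc7a11, chr3:50443564-50443863, minus strand: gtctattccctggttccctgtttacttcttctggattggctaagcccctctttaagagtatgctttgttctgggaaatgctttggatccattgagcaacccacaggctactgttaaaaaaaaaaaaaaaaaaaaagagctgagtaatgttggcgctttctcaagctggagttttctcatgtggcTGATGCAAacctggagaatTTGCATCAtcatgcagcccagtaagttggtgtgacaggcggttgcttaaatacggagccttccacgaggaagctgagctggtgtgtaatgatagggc
Nupr1, chr7:126625421-126625720, minus strand: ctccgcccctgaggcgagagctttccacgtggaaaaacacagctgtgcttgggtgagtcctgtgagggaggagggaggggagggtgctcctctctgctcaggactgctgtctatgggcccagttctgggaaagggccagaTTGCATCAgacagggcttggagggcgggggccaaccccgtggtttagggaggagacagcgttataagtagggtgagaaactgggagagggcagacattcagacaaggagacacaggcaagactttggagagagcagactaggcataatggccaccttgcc
Counted from the start site as 0, the first base of the core lay at -23 in Asns and at 14 in Trib3. It lay at -193 in Chac1, at -66 and -47 in Slc7a11, and at -110 in Nupr1. A match is a description of the letters and not evidence of binding.

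Library totals over the listed genes ran from 14229980 to 40321967 counts. Digestive enzyme transcripts took a mean of 82.2% and 82.9% of the counts in the YA groups and 40.7% to 59.0% in the other 6 groups. Values per library are CPM, counts scaled to a common library size, after adjustment by the trimmed mean of M-values (TMM), which sets the bulk of genes level between libraries. The choice of scale decides many directions with age and with caerulein. Scaling on library totals alone shifted the median over all genes by -2.04 (log2) for age in Ehmt2+/+ and by -2.28 in Ehmt2fl/fl. The shift was 1.45 and 2.25 for caerulein, and 0.86 and 0.79 for genotype after caerulein with Pdx1-Cre and P48-Cre. Changes below are relative to the bulk of genes. In edgeR's quasi-likelihood test a gene passed when its Benjamini-Hochberg adjusted p over all genes tested was under 0.1 and its log2 difference was 1 or more in either direction. Ehmt2 itself lay between 25.8 and 59.8 CPM, and its genotype difference passed in no comparison, with exons outside the floxed part counted too.

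Per kilobase of transcript, the most abundant member at PN day 10 was Asns, with 56.2 ± 8.99 CPM per kb (SD, n = 3) in Ehmt2+/+, followed by Phgdh with 45.0 ± 3.42. Nupr1 led in the YA Ehmt2+/+ group with 279.8 ± 19.4 CPM per kb (SD, n = 2), ahead of Asns with 133.4 ± 25.4. After caerulein Nupr1 stood at 1072 ± 103.9 CPM per kb (SD, n = 4) in Pdx1-Cre Ehmt2+/+ animals, and the next member, Wars, at 49.5 ± 10.5. Slc7a11 was the lowest member in all 3 of these groups, with means between 0.334 and 0.766 CPM per kb. The plot of 9 genes by library shows how differently members behaved across the 8 groups.

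**Figure D1:**
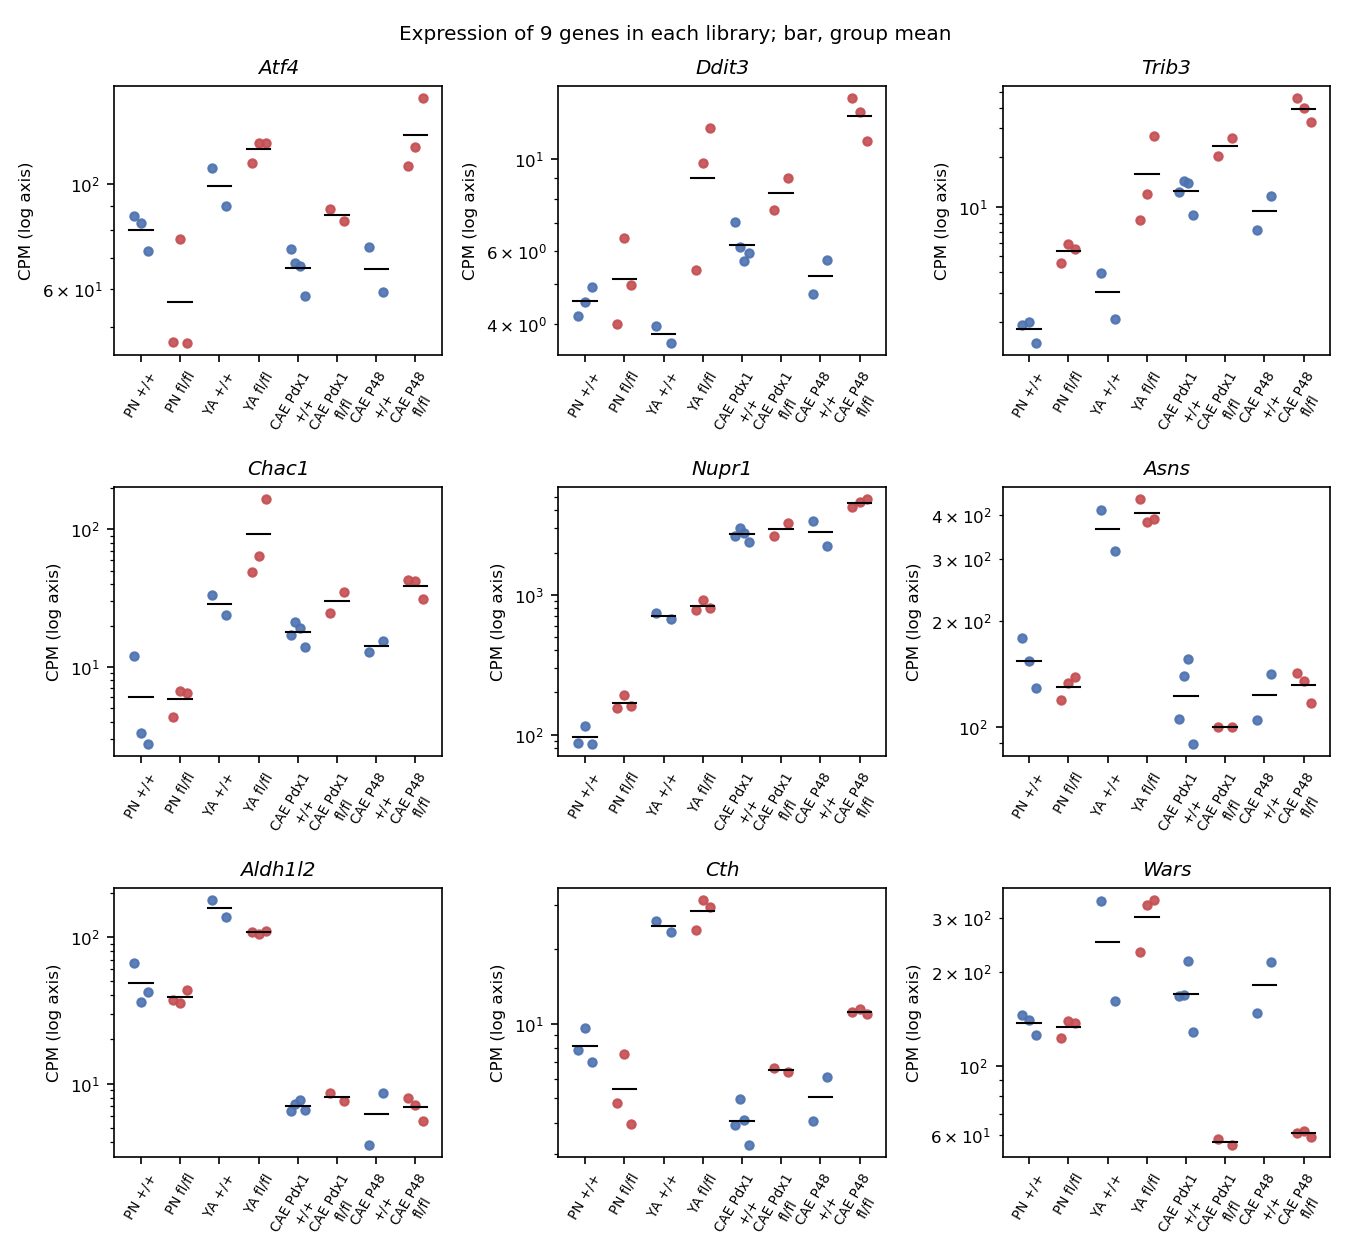
CPM (TMM scale, log axis) of Atf4, Ddit3, Trib3, Chac1, Nupr1, Asns, Aldh1l2, Cth and Wars, with 1 dot per library, blue for Ehmt2+/+ and red for Ehmt2fl/fl, and a bar at each group mean. In every caerulein library, of either driver, Aldh1l2 lies between 3.83 and 8.63 CPM. It lies at 105 CPM or more in untreated YA animals, which all carry Pdx1-Cre. Wars lies between 55.7 and 61.9 CPM in the 5 Ehmt2fl/fl caerulein libraries.

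The first question was how the set differs between the PN day 10 and the YA pancreas. In Ehmt2+/+ animals, 17 of 38 members rose with age and 0 fell, against 7.25% of all genes tested that rose, and in 14 of those 17 the difference was negative when libraries were scaled on totals alone. In Ehmt2fl/fl animals 31 of 38 rose and 0 fell, against 7.64% of all genes, and 27 of the 31 were negative on totals alone. On that scale 0 members passed higher and 22 lower in Ehmt2+/+, where 0.307% of all genes passed higher and 91% lower, and 1 passed higher and 20 lower in Ehmt2fl/fl, where 0.241% and 95.8% of all genes did. The 17 were all among the 31. The median member difference was 0.91 in Ehmt2+/+, beside -0.01 over all genes tested, and 1.26 in Ehmt2fl/fl, beside -0.07. Enzymes of asparagine, proline and cysteine synthesis rose in 4 of 5 members in both genotypes, while cytosolic tRNA synthetases rose in 1 of 8 in Ehmt2+/+ and in 7 of 8 in Ehmt2fl/fl. That contrast between genotypes did not pass for any synthetase when it was tested directly, as given further on.

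Among regulators, Nupr1, a small chromatin-associated protein induced by pancreatic stress, measured 87.4, 115 and 86.2 CPM at PN day 10 and 738 and 669 CPM in YA Ehmt2+/+ libraries. Ehmt2fl/fl libraries measured 154, 191 and 160.4 CPM at PN day 10 and 776, 913 and 803 CPM in YA. Its log2 difference was 2.87 ± 0.23 (SE, adjusted p = 6.37e-05) and 2.30 ± 0.21 (adjusted p = 0.000119). YA libraries stood above all PN libraries in both genotypes on this scale, while on library totals alone the difference of Nupr1 was 0.84 and 0.03 and did not pass. Atf5, a relative of Atf4 that is also translated under eIF2 phosphorylation, measured 50.6, 35.3 and 36.5 CPM at PN and 89.0 and 101.1 CPM in YA Ehmt2+/+. In Ehmt2fl/fl the values were 41.9, 27.2 and 50.4 CPM and 166, 141 and 163 CPM. It rose by 1.22 ± 0.26 (adjusted p = 0.00919) and 1.98 ± 0.25 (adjusted p = 0.000439), with no overlap between ages. 

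Atf4, the central factor, measured 85.5, 82.7 and 72.4 CPM at PN and 108 and 89.9 CPM in YA Ehmt2+/+, a log2 difference of 0.31 ± 0.25 that did not pass (adjusted p = 0.395). The Ehmt2fl/fl values were 46.4, 76.5 and 46.3 CPM and 111, 122 and 123 CPM and rose by 1.08 ± 0.22 (adjusted p = 0.00508). The Ehmt2fl/fl difference sat just inside the threshold and fell below it without PN Ehmt2fl/fl replicate 1 (0.95) or replicate 3 (0.95). Ddit3, which encodes the proapoptotic factor CHOP and lies on chromosome 10 from 127290774 to 127296288, did not pass in either genotype. It measured 4.18, 4.53 and 4.91 CPM at PN and 3.97 and 3.61 CPM in YA Ehmt2+/+, a difference of -0.26 ± 0.34 (adjusted p = 0.598). In Ehmt2fl/fl the values were 4.01, 6.47 and 4.98 CPM and 5.42, 9.77 and 11.9 CPM, a difference of 0.83 ± 0.28 (adjusted p = 0.0445). The ages overlapped in Ehmt2fl/fl, through the lowest YA library, and Ddit3 passed without it, YA Ehmt2fl/fl replicate 1 (1.08), or without PN Ehmt2fl/fl replicate 2 (1.03). Cebpb and Cebpg, which encode C/EBP partners of ATF4, did not pass, with differences from -0.25 ± 0.59 to 0.50 ± 0.25.

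Of the effectors, 2 of 6 rose in Ehmt2+/+ (Chac1 and Stc2) and all 6 rose in Ehmt2fl/fl, where Chac1 alone also passed on library totals (1.87). Stc2, a secreted glycoprotein of the stanniocalcin family, measured 12.8, 8.33 and 7.93 CPM at PN and 21.3 and 19.2 CPM in YA Ehmt2+/+, a rise of 1.06 ± 0.26 (adjusted p = 0.0155). The level in Ehmt2fl/fl was 8.10, 8.56 and 9.22 CPM and 30.4, 24.5 and 40.0 CPM, a rise of 1.88 ± 0.24 (adjusted p = 0.000453). The ages did not overlap in either genotype. Ppp1r15a, the feedback subunit that directs dephosphorylation of eIF2, measured 4.86, 4.79 and 4.20 CPM at PN and 10.5, 11.1 and 12.3 CPM in YA Ehmt2fl/fl and rose by 1.30 ± 0.18 (adjusted p = 0.000672). In Ehmt2+/+ its values were 5.28, 5.52 and 4.64 CPM and 9.39 and 7.23 CPM, a difference of 0.69 ± 0.20 that did not pass (adjusted p = 0.0338). Both genotypes therefore had all YA libraries above all PN libraries. Trib3, a pseudokinase that binds ATF4 and damps it, measured 1.90, 2.00 and 1.49 CPM at PN and 3.97 and 2.06 CPM in YA Ehmt2+/+, a difference of 0.72 ± 0.48 (adjusted p = 0.308). For Ehmt2fl/fl the libraries gave 4.57, 5.91 and 5.56 CPM and 8.34, 11.9 and 27.0 CPM and rose by 1.58 ± 0.38 (adjusted p = 0.0103). The YA Ehmt2fl/fl libraries were widely spread, and without the highest of them, replicate 3, the rise of Trib3 no longer passed (0.93).

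Serine and one-carbon enzymes rose in 3 of 6 members in Ehmt2+/+ and in 5 of 6 in Ehmt2fl/fl. Phgdh, the first enzyme of serine synthesis, measured 119.6, 113 and 103 CPM at PN and 276 and 203 CPM in YA Ehmt2+/+, a rise of 1.10 ± 0.22 (adjusted p = 0.00618). Ehmt2fl/fl animals had 72.3, 85.0 and 90.6 CPM and 333, 271 and 261 CPM, a rise of 1.81 ± 0.20 (adjusted p = 0.000287). No PN library of Phgdh reached a YA library in either genotype. Mthfd2, a mitochondrial folate enzyme, measured 26.2, 22.0 and 17.2 CPM at PN and 88.8 and 60.7 CPM in YA Ehmt2+/+, a rise of 1.78 ± 0.23 (adjusted p = 0.000696). In Ehmt2fl/fl it measured 20.7, 25.7 and 20.1 CPM and 76.0, 71.0 and 75.3 CPM, a rise of 1.75 ± 0.21 (adjusted p = 0.000412). The ages were again apart in both genotypes. Aldh1l2, on chromosome 10 from 83487450 to 83534140 (GRCm38), is the mitochondrial formyltetrahydrofolate dehydrogenase that yields NADPH. It measured 66.3, 36.2 and 42.1 CPM at PN and 178 and 137 CPM in YA Ehmt2+/+, a rise of 1.71 ± 0.26 (adjusted p = 0.00151). Ehmt2fl/fl libraries measured 37.3, 35.5 and 43.7 CPM and 107, 105 and 109 CPM, a rise of 1.47 ± 0.24 (adjusted p = 0.00147). The 3 YA Ehmt2fl/fl libraries were close to each other and below both YA Ehmt2+/+ libraries.

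Asns, which makes asparagine and is the classical ATF4 target, measured 178, 154 and 129 CPM at PN and 414 and 316 CPM in YA Ehmt2+/+, a rise of 1.25 ± 0.22 (adjusted p = 0.00356). The Ehmt2fl/fl values were 119, 133 and 138 CPM and 443, 381 and 389 CPM, a rise of 1.64 ± 0.21 (adjusted p = 0.000445). The genotypes overlapped at each age. Cth, which releases cysteine from cystathionine, measured 7.82, 9.63 and 6.98 CPM at PN and 25.8 and 23.4 CPM in YA Ehmt2+/+, a rise of 1.59 ± 0.27 (adjusted p = 0.00278). The level in Ehmt2fl/fl was 4.79, 7.56 and 3.95 CPM and 23.9, 31.4 and 29.6 CPM, a rise of 2.39 ± 0.26 (adjusted p = 0.00023). YA libraries of Cth stood above all PN libraries in both genotypes, while on library totals alone its difference was -0.44 and 0.14. Cbs, which makes cystathionine from homocysteine and serine, measured 143, 99.996 and 91.7 CPM at PN and 334 and 238 CPM in YA Ehmt2+/+, a rise of 1.36 ± 0.25 (adjusted p = 0.00451). For Ehmt2fl/fl the libraries gave 85.2, 81.6 and 104 CPM and 277, 274 and 329 CPM, a rise of 1.71 ± 0.24 (adjusted p = 0.000681). Pycr1, the last enzyme of proline synthesis, was the only one of the 5 that did not pass, with differences of 0.60 ± 0.28 and 0.99 ± 0.25.

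Transporters rose in 5 of 7 members in Ehmt2+/+ and in 6 of 7 in Ehmt2fl/fl. Slc3a2, the heavy chain shared by Slc7a5 and Slc7a11, measured 63.7, 35.7 and 37.6 CPM at PN and 253 and 196 CPM in YA Ehmt2+/+, a rise of 2.29 ± 0.31 (adjusted p = 0.000784). Ehmt2fl/fl animals had 47.9, 34.9 and 59.3 CPM and 309, 243 and 238 CPM, a rise of 2.48 ± 0.29 (adjusted p = 0.000318). The YA libraries were far above all PN libraries, while on library totals alone the difference of Slc3a2 was 0.20 and 0.16 and did not pass. Slc1a5, a neutral amino acid and glutamine transporter, passed in neither genotype (0.24 ± 0.31 and 0.86 ± 0.28). Among the tRNA synthetases, Nars, which charges asparagine, measured 58.6, 52.3 and 48.4 CPM at PN and 115 and 132 CPM in YA Ehmt2+/+, a rise of 1.22 ± 0.19 (adjusted p = 0.00157). Gars, which charges glycine, measured 51.1, 54.7 and 54.5 CPM at PN and 121, 107 and 119 CPM in YA Ehmt2fl/fl, a rise of 1.11 ± 0.17 (adjusted p = 0.00106). Neither pair of groups overlapped. Eprs, the bifunctional synthetase for glutamate and proline, was the only synthetase that passed in neither genotype (0.49 ± 0.23 and 0.49 ± 0.20).

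Acinar markers rose with age in 11 of 12 genes in Ehmt2+/+ and in 12 of 12 in Ehmt2fl/fl, and their summed level in the TMM scale went from 175100 to 239800 CPM in PN libraries to 972100 to 1743000 CPM in YA libraries. Sums on this scale are not bounded by the size of a library, since TMM factors of the YA libraries were as low as 0.263. Fibroblast and stellate markers fell in 6 of 8 genes in both genotypes. The part of these cell type differences in the members' rises was not tested. Without YA Ehmt2+/+ replicate 1, 10 members passed in Ehmt2+/+ in place of 17, the 7 lost being Chac1, Stc2, Phgdh, Slc7a11, Slc7a5, Slc7a1 and Slc38a2, and Stc2, Slc7a5 and Slc7a1 were also lost without PN Ehmt2+/+ replicate 2 or 3. Slc7a5 was lost without YA Ehmt2+/+ replicate 2 too (1.35), Aldh18a1 without PN Ehmt2+/+ replicate 2 (0.96) and Slc7a11 without PN Ehmt2+/+ replicate 3 (1.06). In Ehmt2fl/fl, the rises of Aars, Iars and Yars, which charge alanine, isoleucine and tyrosine, were lost without PN Ehmt2fl/fl replicate 2 (0.91, 0.92 and 0.97) or YA Ehmt2fl/fl replicate 3 (0.93, 0.98 and 0.90). Slc7a1 was lost without the first of these (0.94) and Slc38a2 without the second (0.98). Other members passed higher when a library was left out. In Ehmt2+/+ they were Slc1a4, Aars and Iars without PN replicate 1 (1.07, 1.33 and 1.20) and Wars, Iars and Yars without YA replicate 2 (1.31, 1.05 and 1.01). In Ehmt2fl/fl they were Psph without PN replicate 2 (1.27), Slc1a5 without PN replicate 3 (1.28) or YA replicate 2 (1.02), and Pycr1 without PN replicate 3 (1.14), YA replicate 2 (1.04) or YA replicate 3 (1.13).

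Other genes of the pathway were counted in the same way. Of 15 eIF2 kinases, eIF2 and eIF2B subunits and their regulators, 2 rose in Ehmt2+/+, namely Eif2ak3, the endoplasmic reticulum kinase PERK (1.54 ± 0.23, adjusted p = 0.00136), and Eif2b2, a subunit of the exchange factor (1.12 ± 0.21, adjusted p = 0.00407). The same 2 rose in Ehmt2fl/fl and Impact, an inhibitor of the kinase GCN2, fell (-1.27 ± 0.31, adjusted p = 0.0105). Among 15 genes of other cytosolic synthetases and of their complex partners Aimp1, Aimp2 and Eef1e1, 1 rose in Ehmt2+/+ and 3 in Ehmt2fl/fl. Of 17 mitochondrial synthetases 1 and 2 rose. Other amino acid transporters rose in 9 of 18 genes in Ehmt2+/+ and in 7 of 19 in Ehmt2fl/fl, among them Slc38a5, a glutamine and asparagine carrier, in Ehmt2+/+ (2.57 ± 0.34, adjusted p = 0.000739). Chaperones and sensors of the unfolded protein response rose in 9 of 20 genes and in 10 of 20, with Herpud1, a component of the degradation machinery, up by 1.73 ± 0.29 and 2.30 ± 0.28. Of 13 other folate enzymes, the cytosolic Aldh1l1 rose in both genotypes (2.86 ± 0.36 and 3.08 ± 0.35), while Tyms, which makes thymidylate, fell in both (-2.00 ± 0.35 and -1.47 ± 0.30). None of 9 NRF2 targets passed.

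The second question was what caerulein does to the set in Pdx1-Cre animals. Read from Y-linked genes, the treated Ehmt2+/+ animals were all female and the treated Ehmt2fl/fl animals all male. Untreated YA groups held both sexes, with replicate 3 the only female of Ehmt2fl/fl, so sex is partly mixed with caerulein. With sex as a covariate in this model, the effect of sex could come from the untreated YA libraries alone. A fit with that covariate is thus not separate from a fit without YA Ehmt2fl/fl replicate 3. In Ehmt2+/+ animals 4 members rose (Cebpb, Nupr1, Trib3 and Sesn2), against 10.4% of all genes, and 13 fell, against 9.61%, of which 5 (Phgdh, Psat1, Mthfd2, Slc7a1 and Slc38a2) had a positive difference on library totals alone. In Ehmt2fl/fl animals 2 rose (Cebpb and Nupr1), against 18.5% of all genes, and 19 fell, against 14.7%, of which 15 were positive on library totals alone. On that scale 11 members passed higher and 3 lower in Ehmt2+/+, where 74.1% of all genes passed higher and 1.15% lower, and 25 passed higher and 3 lower in Ehmt2fl/fl, where 89.2% and 1.27% of all genes did. On the TMM scale all 5 asparagine, proline and cysteine enzymes and 4 of 6 serine and one-carbon enzymes fell in both genotypes, and no enzyme of these groups and no transporter rose. In Ehmt2fl/fl, 5 of the 19 that fell belong to other roles (Atf5, Chac1, Stc2, Wars and Yars). Of the 13 members that fell in Ehmt2+/+, all 13 fell in Ehmt2fl/fl too. The median member difference was -0.77 beside 0.10 over all genes in Ehmt2+/+, and -0.97 beside 0.12 in Ehmt2fl/fl. Calls that passed on both scales were the falls of Aldh1l2 and Pycr1 and the rises of Cebpb and Nupr1 in both genotypes, the fall of Cth and the rises of Trib3 and Sesn2 in Ehmt2+/+, and the fall of Cbs in Ehmt2fl/fl.

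**Figure D2:**
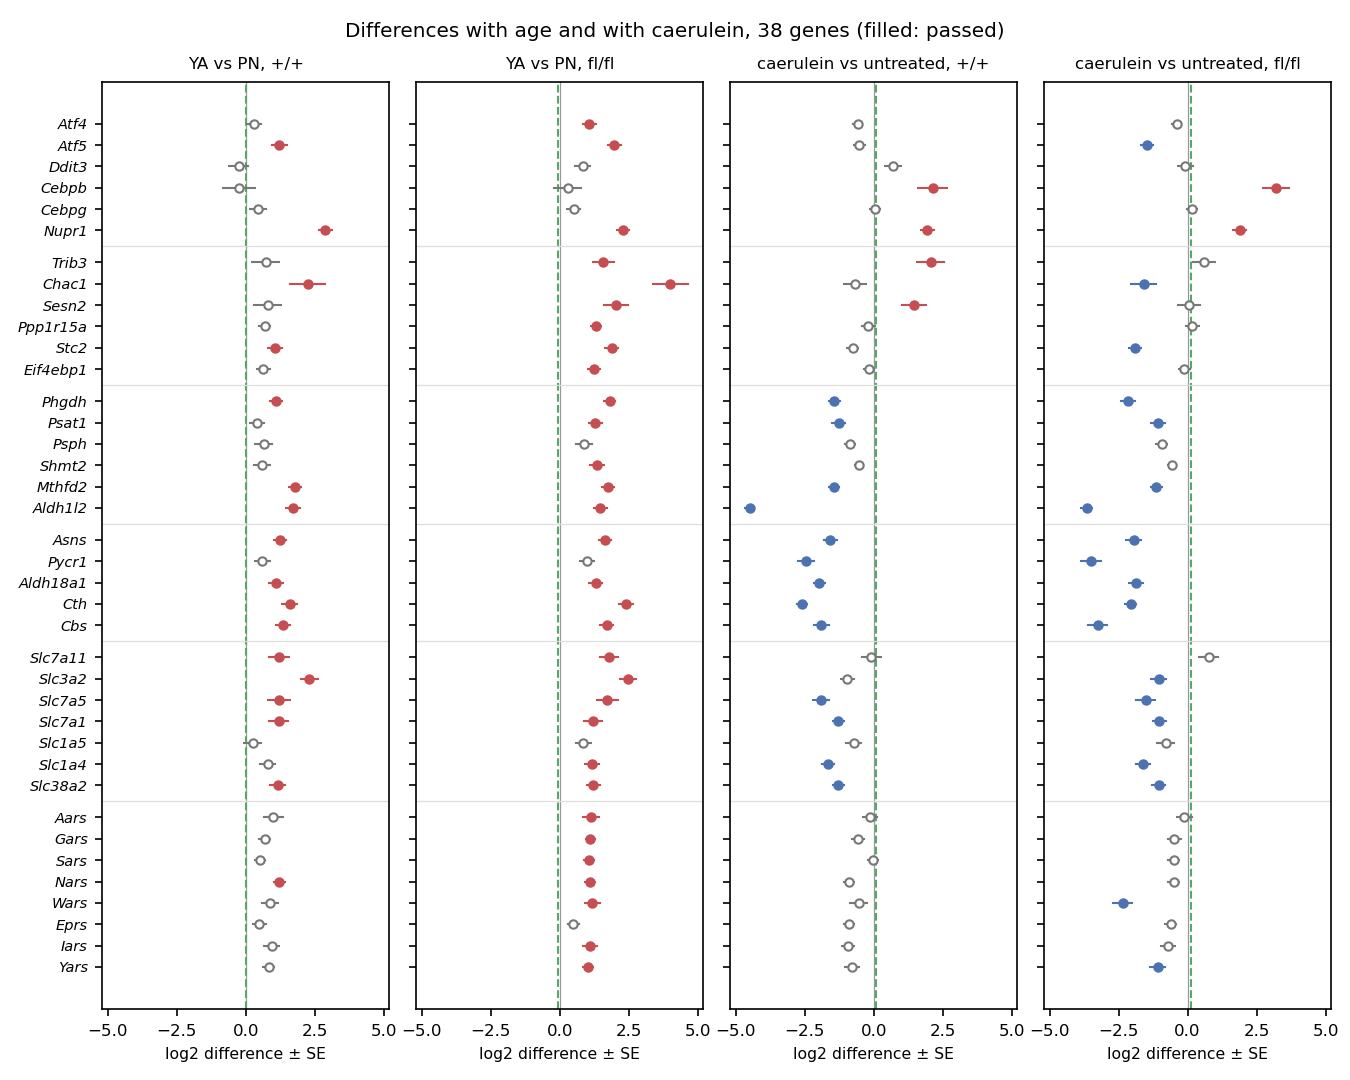
Log2 difference ± SE of the 38 members, by role, for YA against PN and for caerulein against untreated YA in Pdx1-Cre animals, by genotype. Filled red points passed higher, filled blue points passed lower, and the green dashed line is the median of all genes tested; with age 17 and 31 points are filled red, of which 14 and 27 turn negative when scaled on library totals alone, and with caerulein 13 and 19 are filled blue, of which 5 and 15 turn positive.

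Nupr1 was again the member with the highest level, at 738 and 669 CPM in untreated and 2626, 3014, 2749 and 2386 CPM in caerulein Ehmt2+/+ libraries. In Ehmt2fl/fl it measured 776, 913 and 803 CPM untreated and 2638 and 3247 CPM after caerulein. It rose by 1.94 ± 0.23 (adjusted p = 0.000155) and 1.89 ± 0.22 (adjusted p = 6.45e-05), with every treated library above every untreated one. Cebpb, a C/EBP factor of acute inflammation as well as of the stress response, measured 1.17, 2.06 and 4.20 CPM untreated and 27.5 and 18.7 CPM after caerulein in Ehmt2fl/fl and rose by 3.22 ± 0.47 (adjusted p = 0.000274). In Ehmt2+/+ it measured 1.59 and 1.65 CPM and 4.35, 10.9, 7.84 and 5.39 CPM and rose by 2.14 ± 0.54 (adjusted p = 0.0116). Untreated and treated libraries did not overlap in either genotype. Of the exon bases of Cebpb, 20.7% overlap Tmem189 on the other strand, and the library kit does not mark strand.

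Atf4 and Ddit3 did not pass in either genotype. Atf4 measured 73.0, 68.3, 67.3 and 58.0 CPM in caerulein Ehmt2+/+ libraries, a difference of -0.57 ± 0.16 from untreated (adjusted p = 0.0205). In caerulein Ehmt2fl/fl libraries it measured 88.9 and 83.8 CPM, a difference of -0.40 ± 0.17 (adjusted p = 0.0832). All treated libraries lay below the untreated libraries of their genotype, which were between 89.9 and 122.5 CPM. Ddit3 measured 7.05, 6.15, 5.67 and 5.94 CPM in caerulein Ehmt2+/+ libraries, a difference of 0.71 ± 0.29 (adjusted p = 0.086). It measured 7.53 and 9.02 CPM in caerulein Ehmt2fl/fl libraries, a difference of -0.08 ± 0.27 (adjusted p = 0.82). Treated libraries were higher than untreated ones in Ehmt2+/+ and within their range in Ehmt2fl/fl. Cebpg did not pass (0.06 ± 0.18 and 0.17 ± 0.18), and Atf5 fell in Ehmt2fl/fl, with a difference of -1.47 ± 0.22 (adjusted p = 0.000338).

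Effectors went both ways. Trib3 measured 3.97 and 2.06 CPM in untreated and 12.4, 14.4, 13.9 and 8.89 CPM in caerulein Ehmt2+/+ libraries and rose by 2.07 ± 0.49 (adjusted p = 0.00884). Ehmt2fl/fl libraries measured 8.34, 11.9 and 27.0 CPM and 20.4 and 26.1 CPM, a difference of 0.60 ± 0.41 that did not pass (adjusted p = 0.254). The treated libraries overlapped the untreated ones in Ehmt2fl/fl, where the highest untreated value was above both. Without that library, YA Ehmt2fl/fl replicate 3, Trib3 passed (1.21, adjusted p = 0.0139), as it did with sex as a covariate (1.20, adjusted p = 0.00774). The fits are not separate checks, since that library is the only female of its group. Sesn2, a leucine-sensing inhibitor of mTORC1, measured 6.35 and 4.23 CPM in untreated and 9.59, 16.3, 15.7 and 16.8 CPM in caerulein Ehmt2+/+ libraries and rose by 1.48 ± 0.43 (adjusted p = 0.0233). This call was lost without YA Ehmt2+/+ replicate 2 (1.21) and with sex as a covariate (0.94). Stc2 measured 30.4, 24.5 and 40.0 CPM in untreated and 7.48 and 8.76 CPM in caerulein Ehmt2fl/fl libraries and fell, with a difference of -1.91 ± 0.22 (adjusted p = 5.47e-05). Chac1, which breaks down glutathione, fell in Ehmt2fl/fl, with a difference of -1.58 ± 0.46 (adjusted p = 0.0148), a call lost without YA Ehmt2fl/fl replicate 3 (-0.90) or caerulein Ehmt2fl/fl replicate 1 (-1.36). Ppp1r15a and Eif4ebp1, an inhibitor of cap-dependent translation, had log2 differences between -0.19 and 0.18 in both genotypes.

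The serine and one-carbon enzymes held the steepest fall. Aldh1l2 measured 178 and 137 CPM in untreated and 6.45, 7.199, 7.67 and 6.61 CPM in caerulein Ehmt2+/+ libraries, a difference of -4.49 ± 0.16 (adjusted p = 5.17e-08). The Ehmt2fl/fl values were 107, 105 and 109 CPM and 8.63 and 7.60 CPM, a difference of -3.66 ± 0.19 (adjusted p = 1.96e-06). The groups were far apart in both genotypes, and the fall passed on library totals too. Of its exon bases 14.1% overlap D10Wsu102e on the other strand. Phgdh measured 276 and 203 CPM and 89.1, 88.2, 107 and 69.7 CPM in Ehmt2+/+, a difference of -1.43 ± 0.21 (adjusted p = 0.000498). The level in Ehmt2fl/fl was 333, 271 and 261 CPM and 60.5 and 63.6 CPM, a difference of -2.15 ± 0.24 (adjusted p = 5.5e-05). Mthfd2 measured 88.8 and 60.7 CPM and 25.4, 31.9, 29.6 and 22.3 CPM in Ehmt2+/+, a difference of -1.44 ± 0.19 (adjusted p = 0.000249). For Phgdh and Mthfd2 every treated library was below every untreated one, and both differences were near 0 on library totals in Ehmt2+/+ (0.030 for each). Psph, the last enzyme of serine synthesis, and Shmt2, which passes a carbon unit from serine to folate, did not pass, with differences between -0.93 ± 0.20 and -0.53 ± 0.14.

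All 5 asparagine, proline and cysteine enzymes fell. Cth measured 25.8 and 23.4 CPM in untreated and 3.91, 4.96, 4.08 and 3.26 CPM in caerulein Ehmt2+/+ libraries, a difference of -2.59 ± 0.19 (adjusted p = 7.51e-06). For Ehmt2fl/fl the libraries gave 23.9, 31.4 and 29.6 CPM and 6.61 and 6.36 CPM, a difference of -2.07 ± 0.22 (adjusted p = 3.57e-05). Pycr1 measured 123 and 104 CPM and 16.9, 21.9, 30.4 and 13.8 CPM in Ehmt2+/+, a difference of -2.45 ± 0.29 (adjusted p = 0.000147). In each case the treated libraries were severalfold below the untreated ones. Pycr1 in Ehmt2fl/fl measured 136, 100.02 and 85.7 CPM and 10.4 and 7.78 CPM, a difference of -3.49 ± 0.37 (adjusted p = 3.78e-05). Cbs measured 334 and 238 CPM and 60.2, 89.8, 104 and 51.3 CPM in Ehmt2+/+, a difference of -1.89 ± 0.27 (adjusted p = 0.000499). Cbs in Ehmt2fl/fl measured 277, 274 and 329 CPM and 30.1 and 28.9 CPM, a difference of -3.25 ± 0.35 (adjusted p = 3.94e-05). The treated Ehmt2fl/fl libraries were the lowest of all for both genes in Pdx1-Cre animals.

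Aldh18a1, the first enzyme of proline synthesis, measured 105 and 106 CPM in untreated and 20.3, 33.1, 33.0 and 21.6 CPM in caerulein Ehmt2+/+ libraries, a difference of -1.96 ± 0.21 (adjusted p = 8.01e-05). Ehmt2fl/fl animals had 107, 112 and 114 CPM and 29.4 and 29.4 CPM, a difference of -1.86 ± 0.25 (adjusted p = 0.000156). Asns measured 414 and 316 CPM and 105, 139, 156 and 89.5 CPM in Ehmt2+/+, a difference of -1.57 ± 0.23 (adjusted p = 0.000567). Treated libraries lay below untreated ones throughout. Asns in Ehmt2fl/fl measured 443, 381 and 389 CPM and 99.8 and 100.05 CPM, a difference of -1.95 ± 0.27 (adjusted p = 0.000209). On library totals alone the difference in Ehmt2fl/fl was 0.31 for Asns, 0.38 for Aldh18a1 and 0.16 for Cth. The sign of all 3 thus changed with the scale there, and none of them passed on totals. In Ehmt2+/+ it was -0.11 for Asns and -0.52 for Aldh18a1.

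Transporters fell in 4 of 7 members in Ehmt2+/+ and in 5 of 7 in Ehmt2fl/fl. Slc1a4, a carrier of alanine, serine, cysteine and threonine, measured 25.1 and 19.3 CPM in untreated and 5.25, 8.91, 8.01 and 5.94 CPM in caerulein Ehmt2+/+ libraries, a difference of -1.65 ± 0.23 (adjusted p = 0.000375). In Ehmt2fl/fl it measured 29.3, 21.8 and 28.5 CPM and 8.77 and 7.75 CPM, a difference of -1.62 ± 0.26 (adjusted p = 0.000473). The treated and untreated ranges were well apart. Slc7a5, the large neutral amino acid carrier, Slc7a1, the arginine and lysine carrier, and Slc38a2, a sodium-coupled carrier of small neutral amino acids, fell in both genotypes. Slc7a11, the cystine importer, did not pass (-0.09 ± 0.34 and 0.78 ± 0.35), though in Ehmt2fl/fl it passed higher without YA Ehmt2fl/fl replicate 3 (1.29, adjusted p = 0.00561) and with sex as a covariate (1.19, adjusted p = 0.00798). In Ehmt2fl/fl, the falls of Slc7a1 and Slc38a2 were lost without YA Ehmt2fl/fl replicate 3 (-0.99 and -0.86), without caerulein Ehmt2fl/fl replicate 1 (-0.91 and -1.0) and with sex as a covariate (-0.96 and -0.84). Those of Psat1, the aminotransferase of serine synthesis, and Slc3a2 were lost without YA Ehmt2fl/fl replicate 1 (-0.96 and -0.97), and that of Psat1 also without caerulein Ehmt2fl/fl replicate 1 (-0.996). Slc3a2 in Ehmt2+/+ passed lower without YA replicate 2 (-1.13), caerulein replicate 2 (-1.08) or caerulein replicate 3 (-1.06). In Ehmt2fl/fl, Slc1a5 did so without YA replicate 2 (-1.02) or caerulein replicate 1 (-1.17), and Psph without caerulein replicate 2 (-1.09).

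Of 8 tRNA synthetases none fell in Ehmt2+/+ and Wars and Yars fell in Ehmt2fl/fl. In Ehmt2+/+, Iars passed lower without YA replicate 2 (-1.03), caerulein replicate 2 (-1.06) or caerulein replicate 3 (-1.0), and Eprs without caerulein replicate 2 (-1.01). Wars, on chromosome 12 from 108860030 to 108894174 (GRCm38), charges tryptophan and is also induced by interferon. It measured 233, 329 and 342 CPM in untreated and 58.0 and 55.7 CPM in caerulein Ehmt2fl/fl libraries, a difference of -2.34 ± 0.35 (adjusted p = 0.000318). In Ehmt2+/+ it measured 339.7 and 162 CPM and 168, 169, 217 and 129 CPM, a difference of -0.54 ± 0.30 that did not pass (adjusted p = 0.192). The Ehmt2fl/fl ranges were far apart and the Ehmt2+/+ ranges overlapped. Yars, which charges tyrosine, fell in Ehmt2fl/fl, with a difference of -1.08 ± 0.27 (adjusted p = 0.00692) and did not pass with sex as a covariate (-0.96).

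Acinar markers fell with caerulein in 11 of 12 genes in Ehmt2+/+ and in all 12 in Ehmt2fl/fl, and their summed level was 215200 to 382200 CPM in treated Ehmt2+/+ libraries and 100800 to 115800 CPM in treated Ehmt2fl/fl libraries. Macrophage and monocyte markers rose in 6 of 9 genes and in all 9, from 78.0 to 150.9 CPM summed in untreated YA libraries to 419.9 to 690.1 CPM in treated Ehmt2+/+ and 1112 to 1268 CPM in treated Ehmt2fl/fl libraries. Their part in the members' differences was not tested. Among other genes, the unfolded protein response list fell in 14 of 20 genes in Ehmt2+/+ and in 11 of 20 in Ehmt2fl/fl, with Herpud1 at -2.47 ± 0.22 (adjusted p = 2.49e-05) and -2.88 ± 0.27 (adjusted p = 2.1e-05). Other amino acid transporters fell in 6 of 18 and 6 of 19, the steepest being Slc38a5 (-4.65 ± 0.29 and -5.37 ± 0.39), and rose in 2 and 5. Of the kinases, Eif2ak2, which senses double-stranded RNA, rose in both genotypes (1.21 ± 0.31 and 1.63 ± 0.31). Of the 15 genes of other cytosolic synthetases and complex partners, Mars alone, which charges methionine, fell in both (-1.46 ± 0.18 and -1.26 ± 0.20). Of 17 mitochondrial synthetases, 1 rose and 2 fell in Ehmt2+/+ and 2 fell in Ehmt2fl/fl. NRF2 targets rose in 4 of 9 genes in both genotypes, with Srxn1, which repairs peroxiredoxin, up by 2.15 ± 0.27 and 2.53 ± 0.24.

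**Figure D3:**
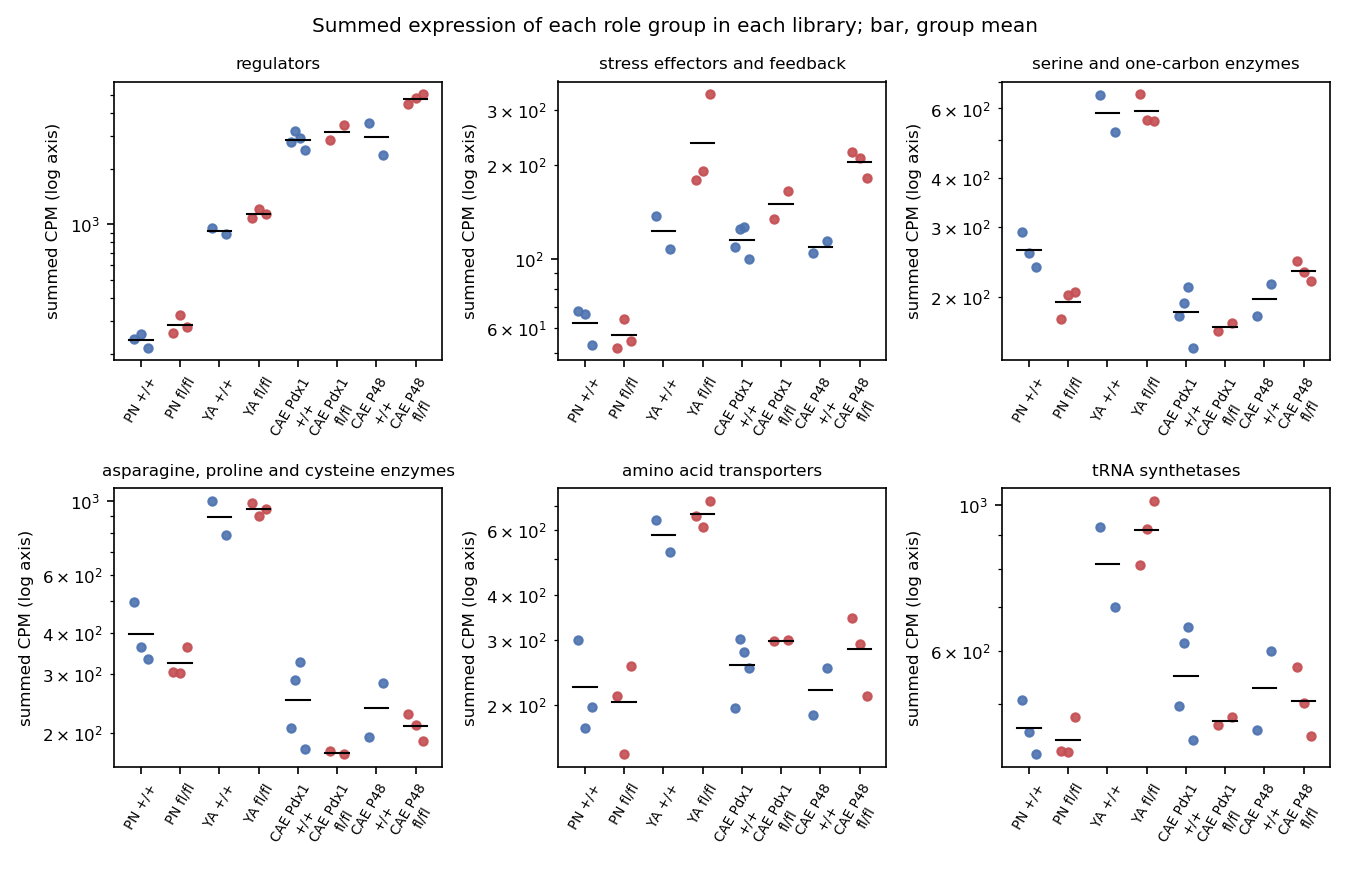
Summed CPM (TMM scale, log axis) of the members of each role group, with 1 dot per library, blue for Ehmt2+/+ and red for Ehmt2fl/fl, and a bar at each group mean. The 5 asparagine, proline and cysteine enzymes sum to 787.1 to 1002 CPM in untreated YA libraries and 172.5 to 328.1 CPM after caerulein. The regulators, which Nupr1 dominates, sum to 882.7 to 1208 CPM and 2376 to 5046 CPM. The caerulein ranges span both drivers, while all untreated libraries are Pdx1-Cre. On library totals alone 3 of the 5 enzymes (Asns, Cth and Aldh18a1) have a positive caerulein difference in Ehmt2fl/fl.

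The third question was whether Ehmt2fl/fl differs from Ehmt2+/+ in untreated pancreas. At PN day 10, 0 of 38 members passed in edgeR, where 0.679% of all genes passed in either direction. An unadjusted p under 0.05 was reached by 6 members (Atf4, Nupr1, Trib3, Phgdh, Psat1 and Cth), against 10% of all genes, and DESeq2 called 1, Trib3, against 1.64%. In YA animals 0 of 38 passed in edgeR, where 0.328% of all genes did, 7 reached an unadjusted p under 0.05 (Atf5, Ddit3, Trib3, Chac1, Sesn2, Stc2 and Aldh1l2), against 9.26% of all genes, and DESeq2 called 3 (Ddit3, Trib3 and Sesn2), against 1.29%. The paper, by its own edgeR test at the same nominal thresholds, lists Ddit3, Trib3, Chac1 and Sesn2 among genes changed in YA Ehmt2fl/fl. The median member difference was -0.15 at PN day 10 and 0.19 in YA, beside 0.00 over all genes in each.

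Trib3 was the member with the largest difference at both ages, though it did not pass. At PN day 10 its values of 4.57, 5.91 and 5.56 CPM in Ehmt2fl/fl lay above 1.90, 2.00 and 1.49 CPM in Ehmt2+/+, a difference of 1.55 ± 0.39 (adjusted p = 0.169). In YA, Ehmt2fl/fl libraries measured 8.34, 11.9 and 27.0 CPM and Ehmt2+/+ libraries 3.97 and 2.06 CPM, a difference of 2.41 ± 0.49 (adjusted p = 0.112). The genotypes did not overlap at either age. DESeq2 gave 1.56 (adjusted p = 0.0116) at PN day 10 and 2.41 (adjusted p = 0.000354) in YA, the fit of the PN groups alone gave 1.55 (adjusted p = 0.05), and leaving out PN Ehmt2fl/fl replicate 2 gave 1.47 (adjusted p = 0.0869) and also brought Psat1 past the threshold (-1.13, adjusted p = 0.0438). In YA, Trib3 passed without Ehmt2+/+ replicate 1 (2.94) and when Ehmt2fl/fl replicate 1 was left out (2.71, with Ddit3 passing too). It also passed with sex as a covariate (2.54), in a fit of the YA groups alone, so the fit changed besides the covariate. In that fit Sesn2 (1.84, adjusted p = 0.0244) and Chac1 (1.68, adjusted p = 0.0531) passed as well.

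In YA the effectors had the highest median of any role group, 1.16 over 6 genes, of which 4 reached an unadjusted p under 0.05. Chac1 measured 49.3, 63.6 and 166 CPM in Ehmt2fl/fl and 33.4 and 23.8 CPM in Ehmt2+/+, a difference of 1.69 ± 0.66 (adjusted p = 0.446). Sesn2 measured 10.5, 13.0 and 30.5 CPM and 6.35 and 4.23 CPM, a difference of 1.78 ± 0.52 (adjusted p = 0.333). Ddit3 measured 5.42, 9.77 and 11.9 CPM and 3.97 and 3.61 CPM, a difference of 1.26 ± 0.35 (adjusted p = 0.279). The genotypes did not overlap for these genes, which was not set against all genes, and Ehmt2fl/fl replicate 3 was the highest library. Atf4 measured 111, 122 and 123 CPM in YA Ehmt2fl/fl and 108 and 89.9 CPM in Ehmt2+/+, a difference of 0.25 ± 0.25 (adjusted p = 0.898), after -0.53 ± 0.22 at PN day 10 (adjusted p = 0.463). Asns differed by 0.13 ± 0.23 in YA (adjusted p = 0.965) and by -0.26 ± 0.20 at PN day 10 (adjusted p = 0.658). The enzymes, transporters and synthetases had role group medians between -0.01 and 0.17 in YA.

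Tested directly, the genotype difference changed with age for 0 of 38 members in edgeR, where 0.0336% of all genes passed. An unadjusted p under 0.05 was reached by 6, against 7.98% of all genes, and DESeq2 called 0, against 0.437%. The median member interaction was 0.41, beside 0.04 over all genes. The largest was that of Chac1, at 1.77 ± 0.86 (adjusted p = 0.652), followed by Sesn2 at 1.26 ± 0.67 (adjusted p = 0.673).

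The last question was whether genotype matters after caerulein. With P48-Cre, 7 members were higher in Ehmt2fl/fl (Ddit3, Cebpb, Trib3, Chac1, Ppp1r15a, Cth and Slc7a11), against 4.01% of all genes, and 1 was lower (Wars), against 1.95%. With Pdx1-Cre, 1 member was higher (Cebpb), against 4.22% of all genes, and 3 were lower (Wars, Cbs and Pycr1), against 2.87%. Over both drivers, with driver as a covariate, 3 were higher (Cebpb, Trib3 and Chac1), against 5.32%, and 3 were lower (Wars, Cbs and Pycr1), against 2.76%. None of these calls turned on library totals alone, but the falls of Wars, Cbs and Pycr1 then shrank below the threshold, while 27 members passed higher with P48-Cre and over both drivers and 22 with Pdx1-Cre. On that scale 31.9%, 30.9% and 33.6% of all genes passed higher in these 3 comparisons. Of the 7 members higher with P48-Cre, 5 are stress regulators or effectors, while Cth and Slc7a11 supply cysteine. All 4 caerulein Pdx1-Cre Ehmt2+/+ animals read as female and both Ehmt2fl/fl as male, so sex and genotype cannot be told apart in that comparison, whereas each P48-Cre group held both sexes.

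**Figure D4:**
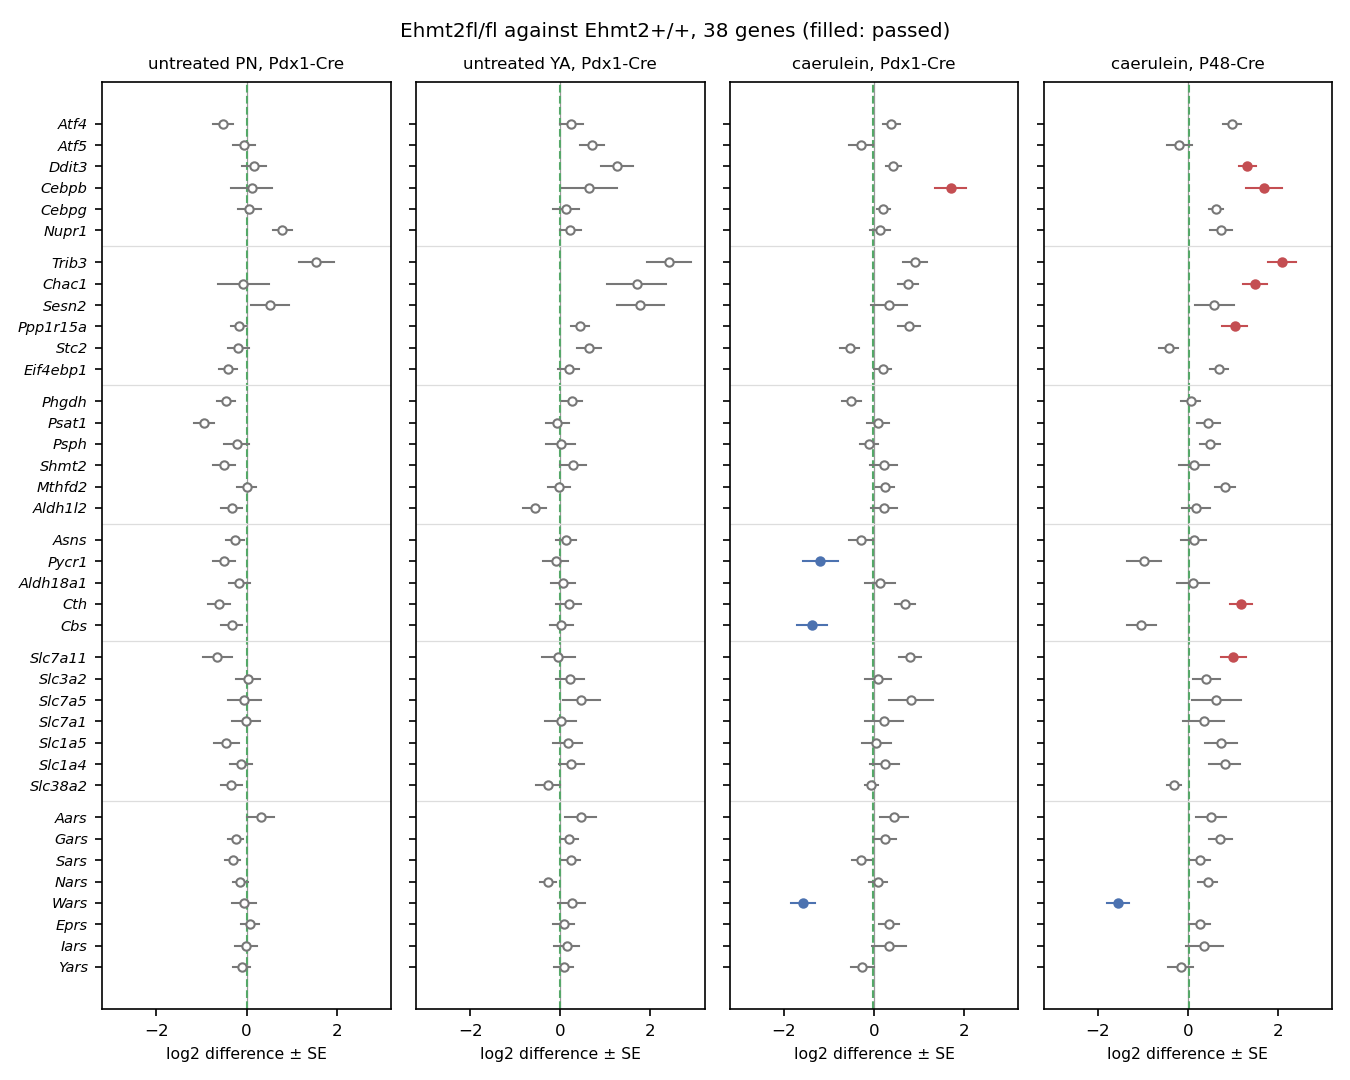
Log2 difference ± SE of Ehmt2fl/fl against Ehmt2+/+ for the 38 members, by role, in untreated PN and YA animals and after caerulein with each driver. Filled red points passed higher, filled blue points passed lower, and the green dashed line is the median of all genes tested; 0 points are filled in untreated animals, 4 with Pdx1-Cre and 8 with P48-Cre, and on library totals alone no filled point changes sign but all the blue ones lose their call.

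Trib3 measured 45.6, 39.6 and 32.8 CPM in P48-Cre Ehmt2fl/fl libraries and 7.26 and 11.7 CPM in Ehmt2+/+, a difference of 2.09 ± 0.31 (adjusted p = 0.00939). With Pdx1-Cre it measured 20.4 and 26.1 CPM and 12.4, 14.4, 13.9 and 8.89 CPM, a difference of 0.91 ± 0.27 that did not pass (adjusted p = 0.0735) but did without Ehmt2+/+ replicate 2 (1.01). Over both drivers the difference was 1.47 ± 0.28 (adjusted p = 0.00459). Ehmt2fl/fl libraries were above all Ehmt2+/+ libraries of their driver, as they were in both untreated comparisons. Ddit3 measured 14.0, 13.0 and 11.1 CPM in P48-Cre Ehmt2fl/fl and 4.74 and 5.72 CPM in Ehmt2+/+, a difference of 1.32 ± 0.19 (adjusted p = 0.00751). With Pdx1-Cre it measured 7.53 and 9.02 CPM and 7.05, 6.15, 5.67 and 5.94 CPM, a difference of 0.43 ± 0.17 that did not pass (adjusted p = 0.166). The P48-Cre genotypes were well apart and the Pdx1-Cre genotypes nearly touched. With P48-Cre, Trib3 and Ddit3 passed in each of the 5 fits that left out a library.

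Chac1 measured 43.1, 42.1 and 31.2 CPM in P48-Cre Ehmt2fl/fl libraries and 13.0 and 15.4 CPM in Ehmt2+/+, a difference of 1.49 ± 0.27 (adjusted p = 0.0184). With Pdx1-Cre it measured 24.9 and 35.2 CPM and 17.0, 21.1, 19.2 and 14.1 CPM, a difference of 0.75 ± 0.23 (adjusted p = 0.089). The genotypes did not overlap with either driver. Cebpb measured 14.3, 11.7 and 10.2 CPM in P48-Cre Ehmt2fl/fl and 3.87 and 3.80 CPM in Ehmt2+/+, a difference of 1.69 ± 0.40 (adjusted p = 0.0471). With Pdx1-Cre it measured 27.5 and 18.7 CPM and 4.35, 10.9, 7.84 and 5.39 CPM, a difference of 1.70 ± 0.34 (adjusted p = 0.0195). The 4 Ehmt2+/+ libraries of the Pdx1-Cre group were spread between 4.35 and 10.9 CPM, all below the Ehmt2fl/fl ones. Ppp1r15a measured 16.2, 12.0 and 9.73 CPM and 6.49 and 6.12 CPM with P48-Cre, a difference of 1.05 ± 0.28 (adjusted p = 0.0665).

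Cth measured 11.2, 11.4 and 10.9 CPM in P48-Cre Ehmt2fl/fl libraries and 4.05 and 6.12 CPM in Ehmt2+/+, a difference of 1.17 ± 0.25 (adjusted p = 0.0309). With Pdx1-Cre it measured 6.61 and 6.36 CPM and 3.91, 4.96, 4.08 and 3.26 CPM, a difference of 0.69 ± 0.22 that did not pass (adjusted p = 0.0991). Slc7a11 measured 15.3, 17.5 and 27.8 CPM in P48-Cre Ehmt2fl/fl and 10.5 and 10.1 CPM in Ehmt2+/+, a difference of 1.01 ± 0.28 (adjusted p = 0.0757). The Ehmt2fl/fl libraries were higher for both genes, and replicate 3 was the highest for Slc7a11. Among the P48-Cre calls, those of Ppp1r15a and Slc7a11 were the least secure. Both were lost under relative log expression (RLE) factors (0.99 and 0.96) and in DESeq2 (0.99 and 0.96). They were also lost at an adjusted p under 0.05, in the fit of the P48-Cre groups alone, and in 4 of the 5 fits that left out a library.

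Wars was the member with the largest fall. It measured 60.8, 61.9 and 59.0 CPM in P48-Cre Ehmt2fl/fl libraries and 148 and 216 CPM in Ehmt2+/+, a difference of -1.55 ± 0.25 (adjusted p = 0.0131). With Pdx1-Cre it measured 58.0 and 55.7 CPM and 168, 169, 217 and 129 CPM, a difference of -1.58 ± 0.26 (adjusted p = 0.0101). The 5 Ehmt2fl/fl libraries of both drivers lay close together, and all 6 Ehmt2+/+ libraries were far above them. Cbs measured 30.1 and 28.9 CPM in Pdx1-Cre Ehmt2fl/fl and 60.2, 89.8, 104 and 51.3 CPM in Ehmt2+/+, a difference of -1.37 ± 0.34 (adjusted p = 0.0408). With P48-Cre it measured 32.3, 30.6 and 36.9 CPM and 55.1 and 84.1 CPM, a difference of -1.03 ± 0.33 that did not pass (adjusted p = 0.117). It passed there under RLE factors (-1.08), under factors without enzyme and mitochondrial genes (-1.09) and in DESeq2 (-1.08, adjusted p = 0.0176). Pycr1 measured 10.4 and 7.78 CPM in Pdx1-Cre Ehmt2fl/fl and 16.9, 21.9, 30.4 and 13.8 CPM in Ehmt2+/+, a difference of -1.19 ± 0.38 (adjusted p = 0.0973). With P48-Cre it measured 8.26, 9.21 and 7.13 CPM and 11.5 and 21.6 CPM, a difference of -0.98 ± 0.37 (adjusted p = 0.187). For both enzymes the Ehmt2fl/fl libraries were the lower ones with either driver. Over both drivers the differences were -1.57 ± 0.18 for Wars (adjusted p = 0.00029), -1.21 ± 0.23 for Cbs (adjusted p = 0.00526) and -1.09 ± 0.26 for Pycr1 (adjusted p = 0.0153).

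Atf4 measured 109, 120.2 and 152 CPM in P48-Cre Ehmt2fl/fl libraries and 73.6 and 59.1 CPM in Ehmt2+/+, a difference of 0.98 ± 0.20 just under the fold threshold (adjusted p = 0.0295). It passed without Ehmt2+/+ replicate 1 (1.13), Ehmt2fl/fl replicate 1 (1.07) or Ehmt2fl/fl replicate 2 (1.02). With Pdx1-Cre the difference was 0.39 ± 0.18 (adjusted p = 0.256), again with no overlap. Asns measured 142, 135 and 117 CPM and 105 and 141 CPM with P48-Cre, a difference of 0.13 ± 0.28 (adjusted p = 0.838). With Pdx1-Cre its difference was -0.29 ± 0.27 (adjusted p = 0.604), and the genotypes overlapped with both drivers. Of the 11 members with the core in the promoter window, 3 were higher with P48-Cre (Trib3, Chac1 and Slc7a11) and 0 lower. With Pdx1-Cre 0 were higher and 1, Pycr1, was lower. The other members higher with P48-Cre were Ddit3, Cebpb and Ppp1r15a, without a core, and Cth, without a promoter to search. The median member difference was 0.48 with P48-Cre, beside 0.03 over all genes, and 0.21 with Pdx1-Cre, beside -0.02. Among the remaining members with P48-Cre, Nupr1 differed by 0.74 ± 0.24 (adjusted p = 0.121) and Eif4ebp1 by 0.69 ± 0.21 (adjusted p = 0.0956), neither of which passed.

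The counts rest on few libraries. With P48-Cre, 4 members passed without Ehmt2+/+ replicate 1 and 2 passed without Ehmt2+/+ replicate 2, in place of 8, and Cebpb (1.69 and 1.70), Chac1 (1.36 and 1.64) and Cth (0.90 and 1.52) were lost in both. Wars was lost without Ehmt2+/+ replicate 2 (-1.24), and Cebpb also without Ehmt2fl/fl replicate 2 (1.72). With Pdx1-Cre, 0 passed when Ehmt2fl/fl replicate 1 was left out (Cebpb 1.39, Pycr1 -1.42, Cbs -1.41 and Wars -1.62), in place of 4. Leaving out replicate 2 took away Pycr1 (-0.99) and Cbs (-1.34). Pycr1 was also lost without Pdx1-Cre Ehmt2+/+ replicate 1, 2 or 3 (-1.29, -1.15 and -0.92). It was lost in the fit of the Pdx1-Cre groups alone (-1.14) and at an adjusted p under 0.05 too. With sex as a covariate, the Pdx1-Cre calls of Cebpb (1.94), Cbs (-1.66) and Pycr1 (-1.55) were lost. Over both drivers, Wars, Cbs, Cebpb and Trib3 passed in each of the 11 fits that left out a library, Chac1 was lost without P48-Cre Ehmt2+/+ replicate 1 (0.96), and Pycr1 was lost without P48-Cre Ehmt2+/+ replicate 2 (-0.93), Pdx1-Cre Ehmt2+/+ replicate 3 (-0.95) or Pdx1-Cre Ehmt2fl/fl replicate 2 (-0.98). Acinar markers were lower in Ehmt2fl/fl in 8 of 12 genes with Pdx1-Cre and in 5 of 12 with P48-Cre, and macrophage and monocyte markers were higher in 6 of 9 and in 4 of 9. With P48-Cre, the summed acinar level was 129200 to 203800 CPM in Ehmt2fl/fl and 287300 to 336500 CPM in Ehmt2+/+, and the summed macrophage and monocyte level 962.3 to 1899 CPM and 354.9 to 603.6 CPM. The part of these cell type differences in the members' differences was not tested.

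Tested directly, the difference between drivers in the genotype effect passed for 0 of 38 members in edgeR and for 0% of all genes. An unadjusted p under 0.05 was reached by 2 (Ddit3 and Trib3), against 4.86% of all genes, and DESeq2 called 0, against 0.0139%. Trib3 had the largest such difference, P48-Cre minus Pdx1-Cre, of 1.18 ± 0.41 (adjusted p = 0.848), and Wars one of 0.03 ± 0.35 (adjusted p = 0.993). In Pdx1-Cre animals, the difference between genotypes in the effect of caerulein passed for 0 of 38 in edgeR too, against 1.25% of all genes. Sex is mixed with this difference, since the treated Ehmt2+/+ animals read as female and the treated Ehmt2fl/fl animals as male. Here 9 members reached an unadjusted p under 0.05 (Atf5, Trib3, Sesn2, Stc2, Phgdh, Aldh1l2, Pycr1, Cbs and Wars), against 14.1% of all genes. DESeq2 called 4, all lower (Atf5, Stc2, Cbs and Wars), against 4.22% of all genes. On library totals alone 5 members passed, all higher, against 14.9% of all genes that passed higher. These were Psat1 (1.07), Mthfd2 (1.09), Aldh1l2 (1.61), Cth (1.30) and Nars (1.20). On the TMM scale the largest was that of Wars, at -1.80 ± 0.45 (adjusted p = 0.113), ahead of Trib3 at -1.47 ± 0.64 (adjusted p = 0.334). The count rose to 4 without caerulein Ehmt2+/+ replicate 4, to 2 without YA Ehmt2+/+ replicate 1 and to 1 without YA Ehmt2fl/fl replicate 2.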

How the data were processed

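Poly(A) RNA of whole pancreas was sequenced in 22 mice and grouped by the labels. The authors mapped reads to GRCm38.p6 (Gencode vM23), counted them per gene with MapRSeq3 and deposited raw counts for 6 comparisons, each listing the genes above its own low-expression filter. They also deposited RPKM, log2 and p-value columns of their edgeR 3.28.1 test, which were not used. Gene length came with the deposited counts. Reads were counted without strand, so overlapping genes share reads.

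The deposited counts went into edgeR 4.0.16 under R 4.3.3 (quasi-likelihood, TMM, filterByExpr at min.count 10 and min.total.count 15) in 3 models of 4 groups, following the study's thresholds (adjusted p under 0.1, log2 of at least 1). SE is the log2 difference over the root of F. CPM per library were scaled over the 11791 genes counted in all libraries. p-values measure the spread between these animals. A statement that groups did not overlap describes the libraries given, without the share over all genes, and is not a test. The script was tested on simulated counts. These gave all libraries the same composition apart from genes changed on purpose, so that test does not bear on the choice of scale. The members and lists were chosen with earlier results of these data known. Values per library are given for members that passed (the 10 of lowest adjusted p beyond 10, and at least 1 per role group) and for Atf4, Ddit3, Trib3 and Asns; of other lists, counts and up to 4 genes. Values of further members (Chac1 and Sesn2 in untreated YA, for example) were added after they were seen. Alternatives were RLE factors, totals alone, factors without enzyme and mitochondrial genes, no filter, DESeq2 1.42.0, compared groups alone, an adjusted p under 0.05, sex (read from Y-linked genes) as a covariate, and each library left out. Gene and exon positions came from GENCODE vM21 on GRCm38.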

Additional observations from a re-analysis of the deposited data

Results flagged for a closer look

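In the caerulein Pdx1-Cre Ehmt2+/+ group of 4, the only group large enough for the check, 2 of 38 members had 1 library far from the others, measured as the gap to the nearest library over the whole range and compared with Dixon's critical value. Sesn2 measured 9.59, 16.3, 15.7 and 16.8 CPM, a gap share of 0.85, and Slc7a1 measured 17.4, 30.2, 28.6 and 28.3 CPM, a gap share of 0.856. In both, replicate 1 was the lowest. Chance gives such a gap in about 1 group in 20.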

How the results depend on the processing

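Of 104 calls of single members, 102 kept direction and side of the threshold under RLE factors, 102 under factors without enzyme and mitochondrial genes, 104 without a filter, 102 in DESeq2, 100 at an adjusted p under 0.05, 93 of 98 in the compared groups alone, 48 of 56 with sex as a covariate, and 542 of 608 with 1 library left out, and none of these reversed. On library totals alone 24 held, 19 lost the call and 61 reversed. Reversed means that the sign of the difference changed, whatever its size or adjusted p, so values near 0 are included. Reversed with age in Ehmt2+/+ were Atf5 -0.83, Stc2 -1.01, Phgdh -0.97, Mthfd2 -0.31, Aldh1l2 -0.39, Asns -0.83, Aldh18a1 -0.97, Cth -0.44, Cbs -0.73, Slc7a11 -0.87, Slc7a5 -0.92, Slc7a1 -0.89, Slc38a2 -0.93 and Nars -0.81. With age in Ehmt2fl/fl they were Atf4 -1.18, Atf5 -0.31, Trib3 -0.58, Sesn2 -0.15, Ppp1r15a -0.97, Stc2 -0.37, Eif4ebp1 -1.06, Phgdh -0.50, Psat1 -1.02, Shmt2 -0.93, Mthfd2 -0.54, Aldh1l2 -0.81, Asns -0.66, Aldh18a1 -0.96, Cbs -0.55, Slc7a11 -0.42, Slc7a5 -0.53, Slc7a1 -1.07, Slc1a4 -1.12, Slc38a2 -1.02, Aars -1.10, Gars -1.17, Sars -1.22, Nars -1.18, Wars -1.05, Iars -1.16 and Yars -1.25. With caerulein in Ehmt2+/+ they were Phgdh 0.030, Psat1 0.15, Mthfd2 0.030, Slc7a1 0.19 and Slc38a2 0.20, and in Ehmt2fl/fl Atf5 0.78, Chac1 0.54, Stc2 0.32, Phgdh 0.13, Psat1 1.22, Mthfd2 1.12, Asns 0.31, Aldh18a1 0.38, Cth 0.16, Slc3a2 1.24, Slc7a5 0.68, Slc7a1 1.21, Slc1a4 0.64, Slc38a2 1.16 and Yars 1.14. The number of members passing moved by over 1.5 times as follows. On totals alone it was 5 for genotype by caerulein, 22 for genotype under caerulein with Pdx1-Cre, and 27 with P48-Cre and over both drivers. DESeq2 gave 1 for genotype at PN day 10, 3 in YA and 4 for genotype by caerulein. The compared groups alone gave 1 at PN day 10 and 5 with P48-Cre. Sex as a covariate gave 3 in YA, in a fit of the YA groups alone. It gave 1 with Pdx1-Cre, where the effect of sex could come from the P48-Cre groups alone. With 1 library left out the number ran from 0 to 2 at PN day 10 and in YA, from 10 to 20 for age in Ehmt2+/+, from 0 to 4 for genotype by caerulein and with Pdx1-Cre, and from 2 to 8 with P48-Cre. Where that left 1 library in a group, it was assumed to vary like the other groups. No paired analysis was possible because the labels give no replicate numbers shared between groups. Depth limits members such as Cebpb and Trib3, with as few as 8 and 20 counts in a library. Libraries also differed in the mean log2 CPM of long genes minus that of short genes, taken relative to the mean of all libraries. This balance ran from -0.883 in P48-Cre Ehmt2fl/fl replicate 3 to 0.546 in caerulein Pdx1-Cre Ehmt2+/+ replicate 4. Its part in the members' differences was not tested.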

Other observations

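Among genes of the neighbouring stress pathways, Sel1l, a subunit of the ubiquitin ligase that clears misfolded protein from the endoplasmic reticulum, was lower in Ehmt2fl/fl after caerulein with both drivers. It measured 101.4 and 105 CPM in Pdx1-Cre Ehmt2fl/fl and 242, 262, 352 and 299 CPM in Ehmt2+/+, a difference of -1.47 ± 0.25 (adjusted p = 0.0108). With P48-Cre it measured 84.7, 92.7 and 75.5 CPM and 273 and 427 CPM, a difference of -2.02 ± 0.24 (adjusted p = 0.00362). Atf3, a stress-induced factor downstream of ATF4, measured 23.2, 23.4 and 31.8 CPM in P48-Cre Ehmt2fl/fl and 7.37 and 5.60 CPM in Ehmt2+/+, a difference of 2.05 ± 0.32 (adjusted p = 0.0112). With Pdx1-Cre the values were 16.7 and 16.4 CPM and 7.29, 10.7, 9.72 and 5.45 CPM, a difference of 1.0 (adjusted p = 0.0607).

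Xbp1, the factor spliced by the endoplasmic reticulum sensor IRE1, was lower in Ehmt2fl/fl with Pdx1-Cre (-1.41 ± 0.26, adjusted p = 0.0142). Slc38a3, a glutamine carrier, was lower with both drivers (-1.89 ± 0.34 with Pdx1-Cre, adjusted p = 0.0134, and -1.95 ± 0.32 with P48-Cre, adjusted p = 0.0135). Of the NRF2 targets, Hmox1, which degrades heme, was higher with Pdx1-Cre (1.42 ± 0.35, adjusted p = 0.0419), and Srxn1 was higher with both drivers (1.07 ± 0.33, adjusted p = 0.0883, and 1.78 ± 0.38, adjusted p = 0.0334). The shorter identifier of Ddit3, whose 105 bases lie wholly inside the exons of the longer one, differed by 1.44 ± 0.34 with P48-Cre (adjusted p = 0.0471). Sex and genotype cannot be told apart in the Pdx1-Cre values, and Xbp1 and Hmox1 are given for that driver only. The genes of these other pathways were picked from 20 unfolded protein response genes, 19 other amino acid transporters and 10 NRF2 targets. Counts over those lists are not given for genotype after caerulein, so the picked genes do not describe the lists.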
